A study of Homo sapiens with 6 samples.

Results

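The genes described here build cholesterol, move it, or set how much of it a cell makes. They are 36 genes named by symbol, and each symbol matched 1 row of the 58051 rows in the count table. All 36 passed the low-count filter and are among the 16690 genes tested. The cells are A375, an established human melanoma line with mutant BRAF. Each of the 6 RNA-seq libraries comes from cells starved for 2 h and then treated for 2 h. The 3 TGFB1 libraries received 10 ng/mL of TGFB1, a secreted ligand of the TGF-beta pathway, and the 3 Vehicle libraries received 4 mM HCl with 1 mg/mL BSA. The series calls the replicates technical, so the p-values measure the spread between these libraries only. The line is a single cell line, and fewer cells and less RNA per cell cannot be told apart in bulk RNA.

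Cells make cholesterol from acetyl-CoA by way of mevalonate, the isoprenoid diphosphates, squalene and lanosterol. The transcription factors SREBP1 and SREBP2, encoded by SREBF1 and SREBF2, drive most of these genes when sterol in the endoplasmic reticulum is low. SCAP carries them to the Golgi, INSIG1 and INSIG2 hold SCAP back when sterol is plentiful, and the proteases encoded by MBTPS1 and MBTPS2 free the active factor. The liver X receptors, encoded by NR1H2 and NR1H3, respond to oxysterols and raise genes of cholesterol export.

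Library totals ran from 24713894 to 34895075 counts, of which the 36 genes took between 35884 and 52759. A single gene held from 49 counts (ABCG1) to 5553 counts (FASN) in a library. The early TGF-beta targets SMAD7, JUNB and SKIL rose with log2 fold changes of 2.70, 1.85 and 1.47. Of 8 markers of the melanocyte lineage, MITF (59.4 to 65.2 CPM in Vehicle) and S100B (55.5 to 65.5 CPM) were well expressed. DCT had 104 to 154 counts, PMEL 10 to 44, and MLANA and TYRP1 at most 19 each. SOX10 had 0 counts in all 6 libraries and TYR at most 5. Of 6 further melanoma markers, CSPG4, MCAM, NES, S100A4 and VIM each had at least 4059 counts in every library, and MIA had 27 to 40. The summed level of the lineage markers was 121.0 to 136.9 CPM in Vehicle and 110.5 to 116.6 CPM with TGFB1, with MITF lower (adjusted p = 0.0355, edgeR). MITF and S100B made up most of this sum. S100B, DCT, PMEL and TYRP1 also had lower means with TGFB1 and MLANA a higher one, without passing. The summed level of the 6 melanoma markers was 1956.0 to 2046.1 CPM in Vehicle and 2107.5 to 2143.5 CPM with TGFB1, with VIM higher (adjusted p = 0.0406, edgeR). VIM made up most of this sum, with means of 1117.0 CPM in Vehicle and 1245.6 CPM with TGFB1. None of the others passed. MCAM (244.3 and 234.4 CPM) and NES (173.0 and 166.9 CPM) had lower means with TGFB1, and CSPG4, S100A4 and MIA higher ones. The part of either list in the sterol results was not tested. Of 8 markers of other cell types, KRT14 had 327 to 598 counts and the other 7 at most 19 counts in any library.

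None of the 36 sterol genes passed the test with TGFB1. A gene passed where edgeR's quasi-likelihood p, after Benjamini-Hochberg adjustment for 16690 genes, was below 0.05. Across all genes tested, 3.31% passed, 2.43% as higher and 0.887% as lower. At an unadjusted p under 0.05 the sterol genes numbered 4, namely MSMO1, CYP51A1, MBTPS1 and INSIG1, against 12.3% of all genes. The 4 are 11.1% of the 36, a share near that background. DESeq2 called 1 sterol gene, MSMO1, and limma-voom called 0, and both put the same 4 genes under an unadjusted p of 0.05. TGFB1 and Vehicle levels were fully separated in 3 of the 36 genes, MSMO1 (lower) and INSIG1 and MBTPS1 (higher), as they were in 16.4% of all genes tested. The median log2 fold change was -0.02 over the 36 genes and -0.01 over all genes, and 21 of the 36 lay below 0 (58.3%, against 52.0% of all genes).

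The intervals show how large a change these libraries leave room for. A 95% interval of each gene's fold change, taken gene by gene, lay inside 1.5-fold in both directions for 33 of the 36 genes and inside 2-fold for all 36. Over all genes tested, the same limits held 64.2% and 78.1%, and over the 51 related genes described below 90.2% and 100%. The lowest Vehicle mean was 2.51 CPM among the 36 genes and 0.0329 CPM among all genes tested. The part of level in these shares was not tested. The 3 intervals that reached 1.5-fold belonged to CYP51A1, TM7SF2 and ABCG1, each with a mean under 7 CPM in Vehicle.

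**Figure D1:**
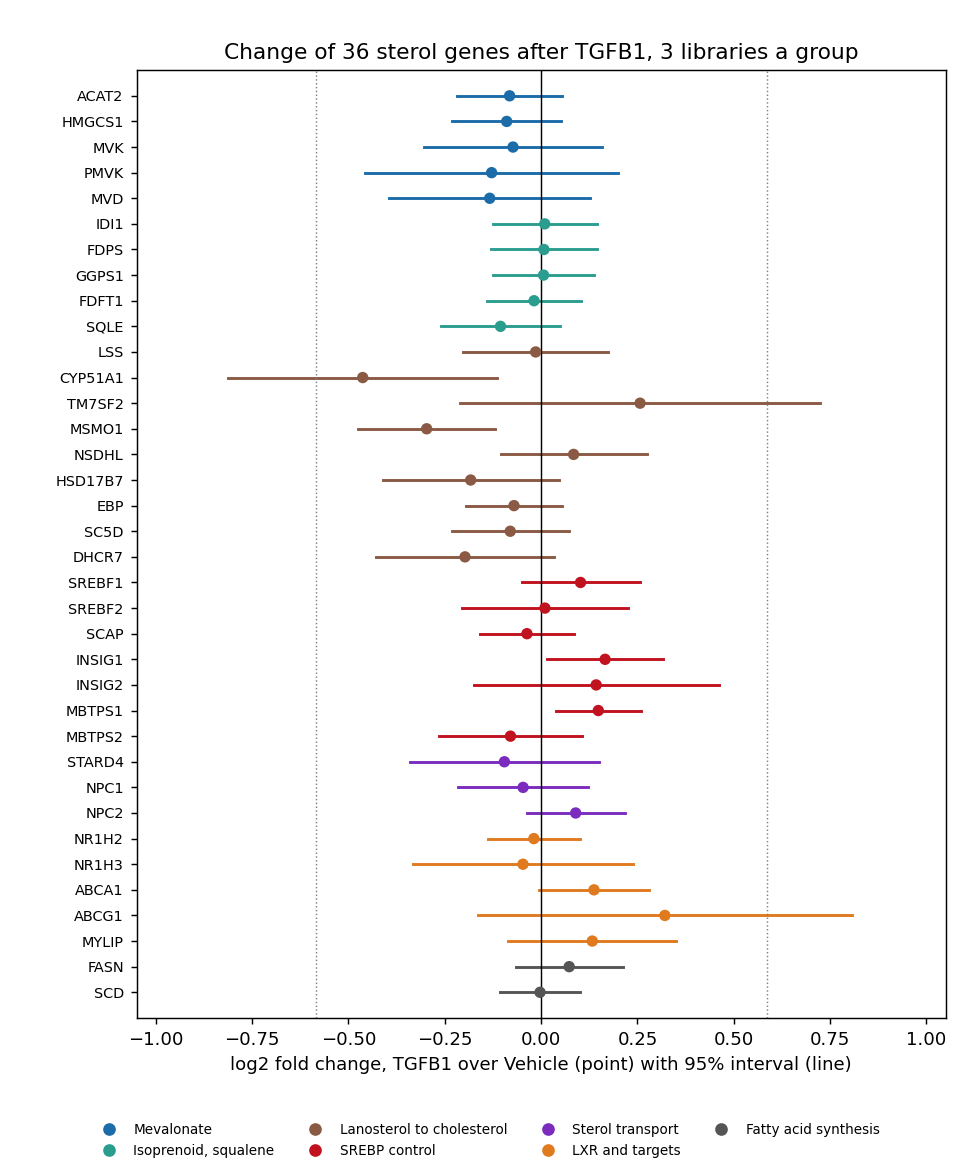
Log2 fold change (TGFB1 over Vehicle) of each of the 36 sterol genes, as a point with its 95% interval as a line, in order of role. Dotted lines mark 1.5-fold. Most intervals cross 0, and those of MSMO1 and CYP51A1 lie below it and those of INSIG1 and MBTPS1 above it.

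The promoters are shown because SREBP factors bind DNA near these genes together with NF-Y, a factor that binds the CCAAT box. RefSeq windows of 300 bases around a transcript start (from position -250, GRCh38.p14) were held for 31 of the 36 genes, 43 windows in all. ABCG1, ACAT2, FASN, FDFT1 and SQLE had none. Each window was searched on both strands for CCAAT, for the sterol response element core TCACNCCAC, for the SMAD motifs CAGACA and GTCTAGAC and for the E-box CACGTG, none of which contains another. CCAAT stood in 23 of the 43 windows (53.5%), in 21 genes, against 34.6% of all 35116 windows. The sterol response element core stood in 1 window, that of SREBF2, and in 1.13% of all windows. CAGACA stood in 10 windows, in 10 genes (23.3%, against 16.9%). CACGTG stood in 6, in 5 genes (14.0%, against 7.26%), and GTCTAGAC in 0 (against 0.202%). The overlapping windows of SC5D held the same CCAAT and CACGTG sites, which are counted once per window. A match is a run of letters and not a measured binding site.

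Stretches before the start are printed for SREBF2, MSMO1 and INSIG1, trimmed where another annotated transcript begins, with CCAAT (or ATTGG, its other strand) and the sterol response element core in capitals. SREBF2 is shown for its sterol element, which begins at position -133 from the start, with an inverted CCAAT box at -106. MSMO1 is the gene nearest to the threshold, and its stretch holds 3 CCAAT boxes. INSIG1 is a gene whose libraries separated upward, and its stretch holds 1.
SREBF2, chr22:41832855-41833078, plus strand: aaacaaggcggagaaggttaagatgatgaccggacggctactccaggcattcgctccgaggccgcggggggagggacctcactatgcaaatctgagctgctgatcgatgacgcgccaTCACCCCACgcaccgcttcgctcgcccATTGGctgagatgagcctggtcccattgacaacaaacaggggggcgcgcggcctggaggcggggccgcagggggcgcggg
MSMO1, chr4:165327419-165327622, plus strand: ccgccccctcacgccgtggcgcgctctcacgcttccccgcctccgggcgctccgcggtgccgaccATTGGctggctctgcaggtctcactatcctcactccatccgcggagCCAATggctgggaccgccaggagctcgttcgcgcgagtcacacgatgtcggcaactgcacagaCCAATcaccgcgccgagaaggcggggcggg
INSIG1, chr7:155297628-155297775, plus strand: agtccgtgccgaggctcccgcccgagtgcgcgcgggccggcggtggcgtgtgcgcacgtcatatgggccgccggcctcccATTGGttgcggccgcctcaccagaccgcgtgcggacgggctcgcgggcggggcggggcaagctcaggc

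The first enzymes of the pathway lead to mevalonate and its diphosphate. All 5 had log2 fold changes below 0, from -0.13 to -0.07, and 0 of 5 passed (adjusted p from 0.683 to 0.88, edgeR). HMGCS1, which makes HMG-CoA, stood at 41.9, 45.9 and 44.4 CPM in Vehicle replicates 1 to 3 and at 40.2, 41.8 and 42.4 CPM with TGFB1. ACAT2, the cytosolic thiolase that joins acetyl-CoA units, stood at 50.5, 57.5 and 55.1 CPM and at 49.4, 51.8 and 53.1 CPM. In both genes the libraries of the groups overlapped, and the fold intervals were 0.852 to 1.04 and 0.860 to 1.04. Exons of other genes on the opposite strand cover 52.3% of ACAT2's exonic bases in GENCODE 29, so its level is uncertain. MVK and PMVK, the kinases of the route, had log2 fold changes of -0.07 and -0.13, and MVD, the decarboxylase that ends it, -0.13. The sign of PMVK turned when TGFB1 replicate 2, its lowest library (4.68 CPM), was left out.

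The isoprenoid and squalene enzymes lay close to 0, with a median of 0.01 on the log2 scale, and 0 of 5 passed. IDI1, FDPS and GGPS1, which interconvert and lengthen the isoprenoid units, each had a log2 fold change of 0.01, a value whose sign turned with upper-quartile scaling. FDFT1, which encodes squalene synthase, stood at 72.1, 65.4 and 71.1 CPM in Vehicle and at 66.9, 69.3 and 69.7 CPM with TGFB1, with a fold interval of 0.907 to 1.07. GGPS1 stood at 59.6, 63.0 and 59.9 CPM and at 65.9, 59.8 and 57.6 CPM. The TGFB1 libraries lay on both sides of the Vehicle libraries in GGPS1, and 37.3% of its exonic bases are shared with TBCE on the same strand, so its level is uncertain. SQLE, the squalene epoxidase gene and a rate-limiting step, was at -0.11 ± 0.08 on the log2 scale (SE, adjusted p = 0.646). The fold intervals of the 5 genes ran from 0.835, for SQLE, to 1.11, for FDPS.

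The 9 enzymes from lanosterol to cholesterol held the most negative values among the synthesis genes, and 0 of 9 passed. MSMO1, which encodes the monooxygenase that removes sterol methyl groups (chromosome 4, 165327623 to 165343160, GRCh38), stood at 27.9, 24.6 and 26.9 CPM in Vehicle and at 20.6, 22.2 and 21.8 CPM with TGFB1. Each TGFB1 library lay below each Vehicle library. Its log2 fold change was -0.30 ± 0.09 (SE), a fold of 0.814 with an interval of 0.719 to 0.921, and its adjusted p was 0.0544 (edgeR). It passed with upper-quartile scaling (0.0395), with a stricter low-count filter (0.046) and with DESeq2 (0.0355). Without 1 library in turn its adjusted p ran from 0.0545 to 0.286.

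CYP51A1, the lanosterol demethylase gene, stood at 4.87, 7.29 and 7.21 CPM in Vehicle and at 5.45, 4.30 and 4.39 CPM with TGFB1. Vehicle replicate 1 lay among the TGFB1 libraries. The log2 fold change was -0.46 ± 0.17 (SE, adjusted p = 0.183), and without Vehicle replicate 1 it was -0.62 and passed (adjusted p = 0.0321, edgeR). In GENCODE 29, 79.4% of its exonic bases are shared with other annotated genes on the same strand, so its level is uncertain.

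The other enzymes of this stretch had smaller values or wider spreads. EBP, the sterol isomerase gene, stood at 77.4, 75.6 and 68.9 CPM in Vehicle and at 72.8, 69.2 and 69.1 CPM with TGFB1, with overlapping libraries. SC5D, a desaturase gene, stood at 38.2, 44.2 and 42.9 CPM and at 37.1, 41.7 and 39.9 CPM. DHCR7, whose enzyme forms cholesterol in the last step of its branch, was at -0.20 ± 0.11 on the log2 scale (SE, adjusted p = 0.522), and HSD17B7, a ketosteroid reductase gene, -0.18 ± 0.11 (SE, adjusted p = 0.56). LSS, which closes the sterol rings, was at -0.01, NSDHL, a sterol dehydrogenase gene, at 0.08 and TM7SF2, a sterol reductase gene under 4 CPM, at 0.26 ± 0.23 (SE).

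Summed over the 19 synthesis enzymes, the level was 610.8, 617.0 and 615.5 CPM in Vehicle replicates 1 to 3 and 586.3, 593.5 and 587.9 CPM with TGFB1. The mean was 614.4 ± 3.25 CPM in Vehicle and 589.2 ± 3.79 CPM with TGFB1 (SD, n = 3 each). The 2 groups of sums did not overlap. Among the synthesis roles, only the lanosterol to cholesterol sums were separated (223.9 to 226.1 CPM in Vehicle, 207.1 to 212.4 CPM with TGFB1). The mevalonate sums overlapped (121.9 to 130.1 CPM and 116.7 to 122.1 CPM). So did the isoprenoid and squalene sums (262.1 to 262.7 CPM and 253.4 to 263.9 CPM). Outside synthesis, the sums of the liver X receptors and their targets were separated upward, narrowly (135.8 to 138.68 CPM and 138.73 to 146.2 CPM). The sums of the remaining roles overlapped. No test was run on these sums, since the genes were chosen with results of these libraries known. By gene, 14 of the 19 had a log2 fold change below 0, with a median of -0.08 against -0.01 over all genes tested, and 0 passed. Summed over all 36 genes the levels overlapped, with a mean of 1481.7 ± 29.7 CPM for Vehicle and 1489.9 ± 25.3 CPM for TGFB1 (SD, n = 3 each).

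**Figure D2:**
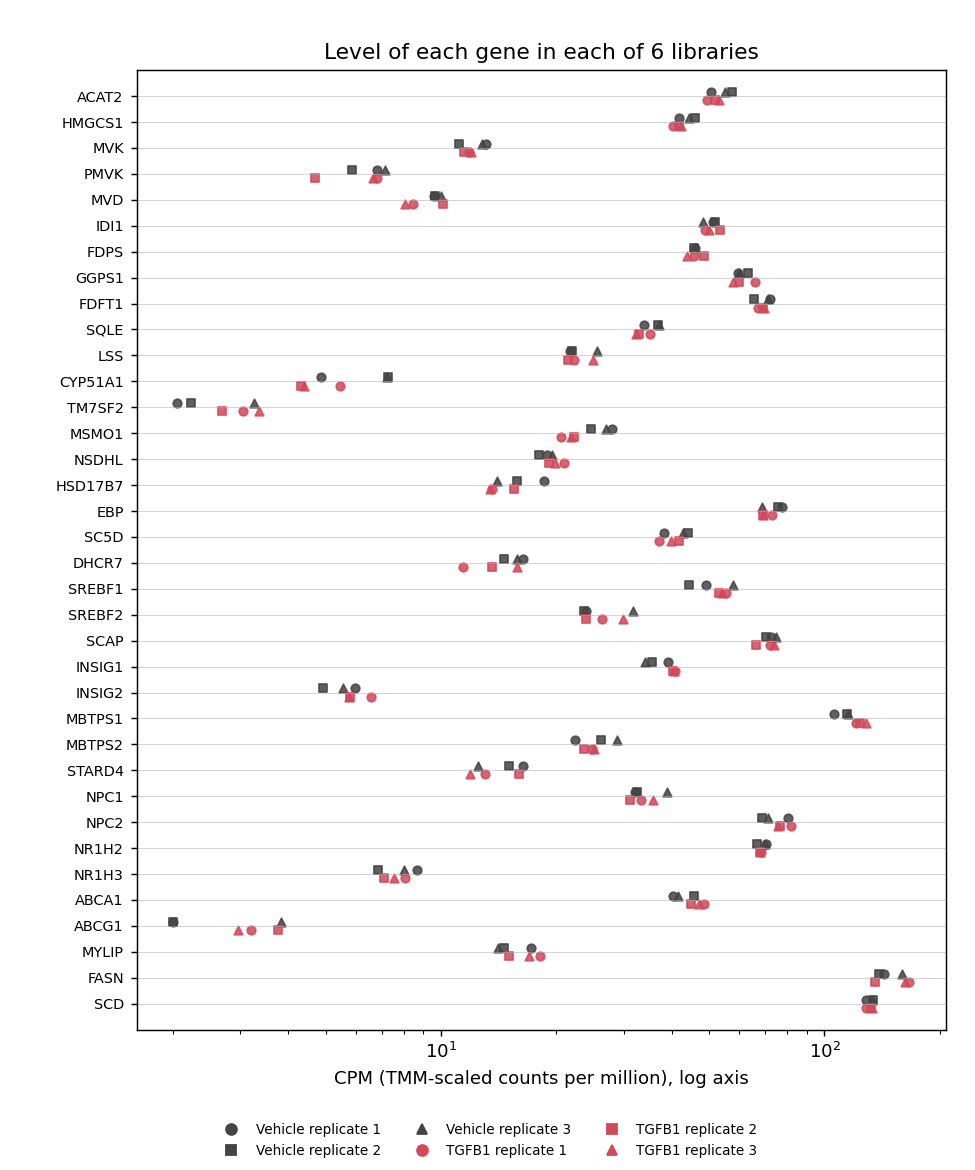
CPM (TMM-scaled, log axis) of the 36 sterol genes in the 3 Vehicle libraries (grey) and the 3 TGFB1 libraries (red), with a marker shape for each replicate. The colours overlap in all rows except MSMO1, INSIG1 and MBTPS1.

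Of the 7 SREBP factors and regulators, 5 had a log2 fold change above 0, and 0 passed. Among all 16690 genes tested, 8016 lay above 0. SREBF2, the main driver of the cholesterol genes, stood at 23.9, 23.6 and 31.7 CPM in Vehicle and at 26.2, 23.9 and 29.9 CPM with TGFB1. Replicate 3 was the highest library in both groups, and the log2 fold change was 0.01 ± 0.10 (SE), a value whose sign also turned with upper-quartile scaling. SREBF1, whose product also drives fatty acid synthesis, stood at 49.2, 44.4 and 57.7 CPM and at 55.4, 53.1 and 54.1 CPM. Its TGFB1 libraries lay within the Vehicle range (log2 fold change 0.10 ± 0.07, SE, adjusted p = 0.653). SCAP, the sterol-sensing escort gene, stood at 72.7, 70.4 and 74.7 CPM and at 72.3, 66.2 and 74.0 CPM, with overlapping libraries.

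INSIG1, an SREBP target whose product retains SCAP, stood at 39.2, 35.4 and 34.0 CPM in Vehicle and at 40.8, 40.4 and 40.4 CPM with TGFB1. Each TGFB1 library lay above each Vehicle library, and the nearest pair differed by less than the spread within Vehicle. The log2 fold change was 0.17 ± 0.07 (SE), a fold interval of 1.01 to 1.246, with an adjusted p of 0.332 (edgeR). INSIG2, which does the same task at a lower level, stood at 5.97, 4.93 and 5.54 CPM and at 6.58, 5.81 and 5.74 CPM, with overlapping libraries and an adjusted p of 0.804.

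MBTPS1, which encodes the first protease that cuts SREBP, stood at 106.0, 114.7 and 115.4 CPM in Vehicle and at 121.1, 123.6 and 128.0 CPM with TGFB1. The groups did not overlap, and the fold interval was 1.03 to 1.20 (log2 fold change 0.15 ± 0.05, SE, adjusted p = 0.169, edgeR). MBTPS2, the second protease gene, stood at 22.4, 26.2 and 28.7 CPM and at 24.8, 23.5 and 25.1 CPM, within the Vehicle range. INSIG1 and MBTPS1 passed under 0 of the alternative settings tried.

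NPC1, NPC2 and STARD4 move sterol inside the cell. NPC2 and NPC1 release cholesterol from lysosomes, and STARD4 carries it between membranes. NPC2 stood at 80.1, 68.6 and 71.4 CPM in Vehicle and at 81.9, 76.5 and 75.5 CPM with TGFB1, and NPC1 at 32.0, 32.5 and 38.9 CPM and at 33.3, 31.2 and 35.8 CPM. Libraries of the groups overlapped in all 3 genes, and the log2 fold changes were 0.09, -0.05 and, for STARD4, -0.10 (adjusted p from 0.63 to 0.898, edgeR).

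The liver X receptors were both expressed, the ubiquitous NR1H2 well above NR1H3. NR1H2 stood at 70.5, 66.6 and 69.9 CPM in Vehicle and at 68.4, 67.9 and 68.0 CPM with TGFB1, which is -0.02 ± 0.06 on the log2 scale (SE). NR1H3 stood at 8.67, 6.87 and 7.99 CPM and at 8.07, 7.11 and 7.56 CPM, a log2 fold change of -0.05 ± 0.14 (SE). In both receptor genes the TGFB1 libraries lay within the Vehicle range.

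The 3 liver X receptor targets lay above 0 in value, and 0 of 3 passed. ABCA1, the main exporter of cellular cholesterol, stood at 40.3, 45.7 and 41.6 CPM in Vehicle and at 48.4, 44.9 and 47.1 CPM with TGFB1. Vehicle replicate 2 lay above TGFB1 replicate 2, and the log2 fold change was 0.14 ± 0.07 (SE, adjusted p = 0.444). ABCG1, which also exports sterol, stood at 2.00, 2.00 and 3.82 CPM and at 3.20, 3.75 and 2.95 CPM. Vehicle replicate 3 was its highest library, and its fold interval, 0.892 to 1.75, was the widest upward. MYLIP, which encodes a ubiquitin ligase that removes lipoprotein receptors, stood at 17.2, 14.6 and 14.0 CPM and at 18.1, 15.05 and 16.9 CPM (0.13 ± 0.11 on the log2 scale, SE, adjusted p = 0.699).

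FASN and SCD, SREBP targets that build and desaturate fatty acids, had the highest CPM of the 36 genes. SCD stood at 128.0, 133.9 and 132.8 CPM in Vehicle and at 128.5, 132.5 and 133.0 CPM with TGFB1, and its fold interval was 0.928 to 1.07. FASN stood at 142.7, 138.9 and 159.5 CPM and at 166.1, 135.8 and 162.4 CPM, with an interval of 0.955 to 1.16. The TGFB1 libraries of FASN lay on both sides of the Vehicle libraries.

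**Figure D3:**
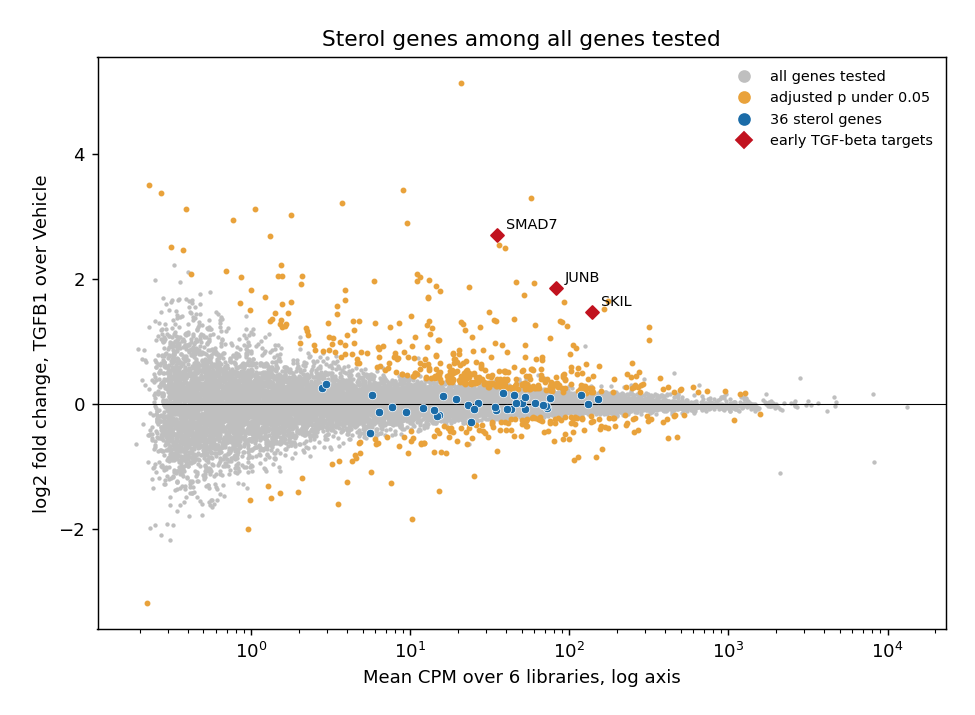
Log2 fold change (TGFB1 over Vehicle) against the mean CPM over 6 libraries (log axis) for all 16690 genes tested (grey), genes with an adjusted p under 0.05 (orange), the 36 sterol genes (blue) and 3 early TGF-beta targets (red). The sterol genes lie between -0.46 and 0.32, and SMAD7, JUNB and SKIL between 1.47 and 2.70.

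Divided by exon length (GENCODE 29, all annotated exons of a gene merged), levels spanned 72.0-fold in Vehicle. EBP was highest at 30.7 CPM per kb, followed by NPC2 (26.7), SCD (24.5), NR1H2 (18.4) and GGPS1 (16.0). ABCG1 was lowest at 0.426 CPM per kb, below TM7SF2 (0.736), INSIG2 (1.39), NR1H3 (1.73) and CYP51A1 (1.80). Of the 35 pairs of neighbours in this order, 30 had libraries that overlapped, so most adjacent places are not separated by the spread over the 6 libraries. SCD lay clear above NR1H2. The places of GGPS1 and CYP51A1 are uncertain, since the division uses all exonic bases, including those shared with other genes on the same strand. With TGFB1 no gene moved by more than 3 places. SREBF1 (6.28 CPM per kb) lay above SREBF2 (3.49 CPM per kb), and INSIG1 (9.92 CPM per kb) above INSIG2.

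**Figure D4:**
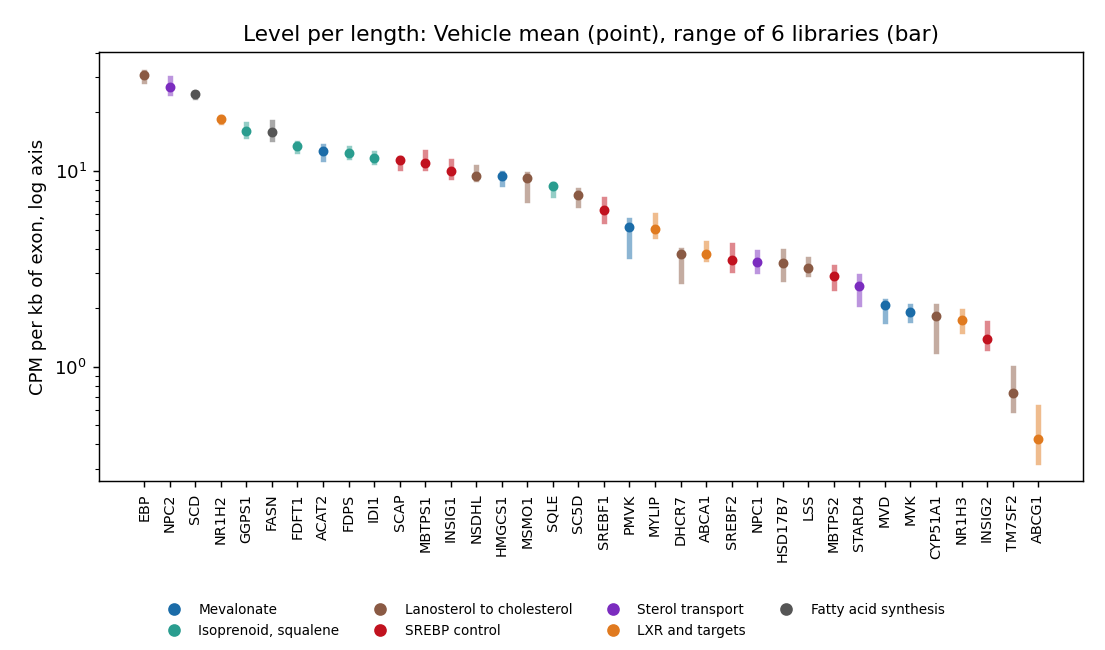
Vehicle mean CPM per kb of exon (points, log axis) of the 36 sterol genes in falling order, with the range over all 6 libraries as a bar, coloured by role. Levels fall from 30.7 for EBP to 0.426 for ABCG1, and most neighbouring bars overlap.

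A further 51 genes of fatty acid synthesis, sterol sensing, sterol uptake and storage and the isoprenoid branch were read in the same fit. Of these, 1 passed as higher and 0 as lower, against 2.43% and 0.887% of all genes tested. NUS1, which encodes a subunit of the enzyme that makes dolichol from isoprenoid units, stood at 40.7, 44.9 and 49.0 CPM in Vehicle and at 54.6, 50.1 and 61.6 CPM with TGFB1. Each TGFB1 library lay above each Vehicle library, and the difference was 0.30 ± 0.08 on the log2 scale (SE, edgeR's adjusted p = 0.0187). NUS1 lost its call when Vehicle replicate 1 (adjusted p = 0.112) or 2 (0.11) was left out. The same held when TGFB1 replicate 1 (0.0706) or 3 (0.259) was left out. The median log2 fold change of the 51 genes was 0.01, and 7 of 51 had an unadjusted p under 0.05, a share near the 12.3% of all genes tested.

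By list, 0 of 14 fatty acid synthesis genes passed, and the most abundant, ACLY, which supplies cytosolic acetyl-CoA, had a fold interval of 0.943 to 1.08. Of 13 genes that govern SREBP and sterol enzymes in the endoplasmic reticulum 0 passed, and the ubiquitin ligase gene RNF145 had an interval of 0.915 to 1.06. Of 14 genes of sterol uptake, storage and movement 0 passed, and CAV1, which coats cholesterol-rich caveolae, had an interval of 0.909 to 1.03. In the isoprenoid branch NUS1 was the 1 of 10 that passed, and RABGGTB, a subunit of a prenyl transferase, had an interval of 0.902 to 1.04.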

How the data were processed

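The deposited file holds raw read counts per Ensembl gene ID. Per the submitters' processing notes the authors used cutadapt, TopHat2 2.1 and HTSeq on GRCh38. Which annotation release was counted, and with which strand, is not given in the sources used here. Symbols were matched by gene ID, and exon lengths, overlaps and coordinates are those of GENCODE 29. Low genes were dropped by filterByExpr (count 10, total 15), and libraries were scaled by TMM. TGFB1 was compared with Vehicle by the robust quasi-likelihood test of edgeR 4.0.16 in R 4.3.3, fitted on group alone, with Benjamini-Hochberg adjustment over 16690 genes. CPM are computed on the TMM-scaled library sizes. The SE is the absolute log2 fold change divided by the square root of F, and intervals use the test's degrees of freedom. The scripts were tested on simulated data. Alternatives were other scalings and filters, a replicate block, DESeq2 1.42.0, limma-voom (limma 3.58.1), dropping each library in turn and a threshold of 0.01. All 36 genes are named. Values per library are given for SREBP and liver X receptor control genes and the 2 most abundant genes of each other role. MSMO1 and CYP51A1 were added after their values were seen. Members and lists were chosen with earlier results of these data known, and the 36 genes are not the whole pathway, so other sterol genes are not reported here.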

Additional observations from a re-analysis of the deposited data

How the results depend on the processing

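No sterol gene passed as higher under any setting. As lower, 1 passed with upper-quartile scaling, with at least 50 counts in 3 libraries and with DESeq2 (MSMO1 each time), and 0 to 1 when 1 library was left out (CYP51A1, without Vehicle replicate 1). The related genes called higher were 0 at a threshold of 0.01 and 0 to 2 when 1 library was left out, and those called lower were then 0 to 1. Over all genes, leaving out 1 library gave 365 to 923 calls, 264 to 683 higher and 97 to 240 lower, with the most without Vehicle replicate 3 and the fewest without TGFB1 replicate 1 for the total and the higher genes and without TGFB1 replicate 3 for the lower ones. At a threshold of 0.01, 95 genes were lower. With the replicate number as a block (replicate block), 601 genes and 0 sterol genes passed. Deviations of same-numbered libraries correlated at -0.03, 0.04 and 0.01, so no shared pattern by replicate number was seen in these levels. Whether same-numbered libraries shared a culture or a day is not stated by the labels and was not tested. Upper-quartile scaling turned the sign of 4 sterol genes, none above 0.01 in size, and leaving out TGFB1 replicate 2 turned 7, up to 0.13. ABCG1, TM7SF2 and CYP51A1 had the widest intervals among the 36 genes, and the part of depth in this was not tested.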

Other observations

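Several sterol genes differed more between libraries of 1 group than between groups; these were picked after their values were seen. In Vehicle replicate 3, SREBF2 (31.7 CPM), NPC1 (38.9 CPM) and ABCG1 (3.82 CPM) were above both other Vehicle libraries, which held 23.6 to 23.9, 32.0 to 32.5 and 2.00 CPM. With TGFB1, replicate 3 was also the highest for SREBF2 (29.9 CPM) and NPC1 (35.8 CPM), but not for ABCG1, whose highest was replicate 2 (3.75 CPM). The coefficient of variation was higher in Vehicle than with TGFB1 for 26 of the 36 genes, with medians of 7.46% and 5.43%. The share of all tested genes with a higher coefficient in Vehicle was not computed. A different measure, variance as a multiple of counting error, was taken over tested genes with enough counts. Between 2 Vehicle libraries it was 11.4 to 25.7 times. Between 2 TGFB1 libraries it was 5.08 to 8.95 times. Of all 6 libraries, Vehicle replicates 1, 2 and 3 were the highest for 9, 5 and 9 genes. TGFB1 replicates 1, 2 and 3 were the highest for 8, 3 and 2. Vehicle replicates 1, 2 and 3 were the lowest for 5, 10 and 4 genes, and TGFB1 replicates 1, 2 and 3 for 5, 6 and 6.

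Among the related genes, 6 besides NUS1 had an unadjusted p under 0.05 without passing; with NUS1 these are 7 of 51, near the 12.3% of all genes tested. Examples chosen after their values were seen are RABGGTA, a prenyl transferase subunit gene (17.8 to 18.8 CPM in Vehicle, 20.9 to 23.05 CPM with TGFB1, adjusted p = 0.15, edgeR), SCARB1, which encodes a lipoprotein receptor (45.8 to 52.6 CPM and 53.4 to 58.4 CPM, adjusted p = 0.241), and ACACA, which encodes acetyl-CoA carboxylase (54.6 to 62.0 CPM and 49.9 to 53.8 CPM, adjusted p = 0.274). In these 3 genes TGFB1 and Vehicle levels were fully separated, and in VLDLR, GRAMD1A and PGGT1B, the others of the 6, they overlapped. Of the 51 related genes, 5 were fully separated as higher and 2 as lower, against 16.4% of all genes tested in either direction.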
